A study of Mus musculus with 2 samples.

Results

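Messenger RNAs of the cytosolic ribosomal proteins were followed across the cell types of the mouse cortex at postnatal day 5. The genes were chosen by symbol alone: Rpl or Rps followed by digits and at most 1 letter (a, l, x or y), together with Rpsa, Rplp0, Rplp1 and Rplp2. This gave 80 of the 32285 genes in the deposited tables, 31 of the small ribosomal subunit and 49 of the large. Cells came from 2 droplet libraries of P5 cortex, 1 from Katnal2 mutant mice (Mut) and 1 from wild-type mice (WT). Katnal2 is a relative of katanin, an enzyme that cuts microtubules. Neither the kind of mutation nor the strain was given in the labels. Both libraries came from tissue dissociated with trypsin and collagenase and from cells sorted by flow cytometry, and the labels also mention storage of tissue in the cold. The design text speaks of 3 replicates behind each genotype, but the cells of single animals are not marked in the tables. With 1 library for each genotype no difference between Mut and WT has a replicate, and no test was made. Intervals given below cover counting error alone.

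The ribosome translates mRNA into protein, and its small and large subunits are built from ribosomal RNA and about equal amounts of each core protein. In mammals most of these protein mRNAs begin at a cytosine followed by a run of pyrimidines, the 5′ terminal oligopyrimidine (TOP) tract, through which the mTOR pathway adjusts their translation. Dividing and growing cells are known for high ribosome production. Mammalian genomes also hold many processed pseudogenes of these genes, and a few functional copies with expression in single tissues, such as Rpl3l of striated muscle and Rpl10l of the testis.

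Start sites of 8 genes on which the results below turn are shown, since the TOP tract is what most of the family has in common in its sequence. RefSeq start sites of the GRCm38.p6 build were matched for 60 of the 80 genes. Each line holds the 50 bases that run from 30 before the annotated start to the 20 that begin with it, 5′ to 3′ on the transcribed strand, with a run of at least 7 C or T bases in capitals. The run was searched on the transcribed strand within 10 bases either side of the start. Pyrimidine runs further from the start, as in the Rpl38, Rpl39 and Rpl13 lines, are not in capitals.
Rpl38: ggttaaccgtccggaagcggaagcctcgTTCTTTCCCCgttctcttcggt
Rps27: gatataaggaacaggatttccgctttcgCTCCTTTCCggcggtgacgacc
Rps18: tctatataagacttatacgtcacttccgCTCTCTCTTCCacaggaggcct
Rps21: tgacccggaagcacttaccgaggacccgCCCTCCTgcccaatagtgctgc
Rpl39: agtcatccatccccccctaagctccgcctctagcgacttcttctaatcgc
Rps28: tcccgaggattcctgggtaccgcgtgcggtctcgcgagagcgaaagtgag
Rpl13: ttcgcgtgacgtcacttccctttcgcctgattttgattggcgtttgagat
Rpl3l: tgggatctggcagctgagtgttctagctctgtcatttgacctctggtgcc
These windows lie at chr11:114668550-114668599 on the plus strand for Rpl38, chr3:90213629-90213678 on the minus strand for Rps27, chr17:33955646-33955695 on the minus strand for Rps18 and chr2:180257349-180257398 on the plus strand for Rps21. The other windows lie at chrX:37085203-37085252 on the minus strand for Rpl39, chr17:33824543-33824592 on the minus strand for Rps28, chr8:123102320-123102369 on the plus strand for Rpl13 and chr17:24727796-24727845 on the plus strand for Rpl3l. Of the 60 matched genes, 27 (45%) held such a run within 10 bases of the annotated start, against 14.2% of the 27025 genes in the promoter table. The annotated start itself was a cytosine in 19 of the 60 (31.7%) and in 16.7% of all genes. The motif CCGGAA, searched on both strands from 250 bases before the start to 50 after it, stood in 30 of the 60 (50%) and in 15.2% of all genes. Rps27l and Rpl39l, of which more below, also hold a run of 7, but without a cytosine at the annotated start. A line without capitals says only that no such run lay within 10 bases of the annotated start. Annotated starts can lie several bases from the start that is used.

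After filtering, 10102 Mut and 11024 WT barcodes were left, with medians of 7625.5 and 6446 unique molecular identifiers (UMIs, 1 per captured mRNA molecule). Only 39 barcodes occurred in both libraries. By Xist and Y-linked UMIs, 5248 Mut barcodes were female and 2757 male, against 3822 female and 4258 male WT barcodes, so each library pooled animals of both sexes. Katnal2 itself gave 426 UMIs in Mut and 327 in WT (4.82 and 3.87 CPM, counts per 1000000 UMIs), a level too low to check the labels, and whether the mutated part would be counted was not given. Barcodes were given a cell type from marker genes, none of them a ribosomal protein gene, and each type name below stands for barcodes chosen in this way. The cortex label held with a reservation: astroglia and interneuron-type cells were plentiful, but only 37 Mut and 34 WT barcodes carried excitatory neuron markers. Comparisons use the 9 types with at least 100 barcodes in both libraries.

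The 80 genes gave 12.2% of all UMIs in Mut and 12.4% in WT, and their share depended far more on the cell type than on the library. Microglia had the highest share of the 9 types, 17.9% in Mut and 18.5% in WT. Endothelial cells followed with 17.3% in Mut and 16.4% in WT. Non-dividing astroglia had the lowest, 10.2% in Mut and 10.5% in WT, so that microglia lay 1.76-fold above astroglia in each library. Between them stood mural cells (14.4% in Mut and 14.3% in WT), inhibitory neurons (14.2% and 14.7%) and oligodendrocyte precursors, OPC (12.1% in Mut and 12.01% in WT). Neighbours in this order were sometimes closer than the libraries or sexes were to each other. Mural cells and inhibitory neurons, for example, changed places between Mut and WT. Within a library, female and male cells of a type differed in their share by at most 0.108 on the log2 scale, far less than the range over types. Exact 95% binomial intervals were narrow, for example 17.88% to 17.98% for Mut microglia and 18.41% to 18.50% for WT microglia. Microglia, endothelial and mural cells were not split by division, so non-dividing astroglia are set against mixed types. Dividing barcodes were 102 of 337 Mut and 101 of 448 WT microglia, and 88 of 378 Mut and 64 of 308 WT endothelial cells.

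The spread within a type was wide. Single microglia had a median share of 18.3% in both libraries (quartiles 15.01% and 21.05% in Mut, 15.1% and 21.8% in WT), and single astroglia had medians of 9.44% in Mut and 9.62% in WT (quartiles 7.39% and 11.9% in Mut, 7.37% and 12.2% in WT). The interquartile ranges of these 2 types therefore did not overlap. Depth moved with the share in astroglia: barcodes below the lower quartile of UMIs had 8.86% in Mut and 9.13% in WT, and those above the upper quartile 10.9% and 11.1%. In microglia the shallowest barcodes by the same division had 18.8% in Mut and 18.8% in WT, and the deepest 17.4% and 18.4%. Endothelial cells rose with depth, from 16.6% to 17.7% in Mut and from 14.2% to 16.8% in WT. Their shallowest WT barcodes lay below those of mural cells (15.3%) and inhibitory neurons (14.9%). In Mut the shallowest endothelial barcodes lay above both (15.7% and 14.6%). RNA free in the droplets, from barcodes with 10 to 100 UMIs, held 12.5% in Mut and 12.03% in WT, above the astroglial and below the microglial share.

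**Figure D1:**
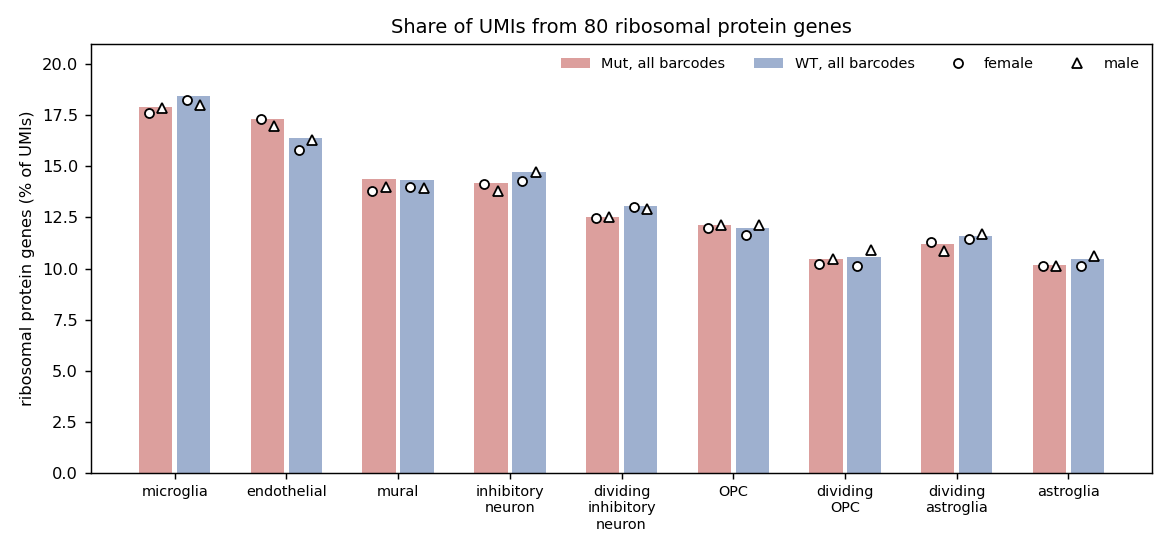
Share of UMIs from the 80 ribosomal protein genes (vertical axis, percent) in 9 cell types, with Mut bars left of WT bars, circles for female cells and triangles for male cells. Microglia and endothelial cells stand at 16.4% to 18.5% and astroglia at 10.2% and 10.5%, while the bars and points of 1 type stay close together.

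Types with fewer barcodes are given by level only. Leukocytes had 18.8% in Mut and 17.2% in WT (55 and 42 barcodes), border-associated macrophages 15.8% and 16.03% (235 and 99) and fibroblasts 15.7% and 15.5% (149 and 59). By summed UMIs these 3 types thus lay with the upper types. Single leukocytes varied widely, with median shares of 15.2% in Mut and 13.3% in WT. Red cells had 6.61% in Mut and 9.60% in WT, from 4 and 7 barcodes. Ependymal cells, the ciliated lining of the ventricles, had 6.77% in Mut and 5.88% in WT, from 14 and 9 barcodes. Choroid plexus epithelium had 6.57% from 9 Mut barcodes, with no such barcode in WT. Barcodes left without a type had 14.3% in Mut and 14.6% in WT.

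Dividing cells did not have a uniformly higher share than their resting counterparts. Dividing astroglia had 11.2% in Mut and 11.6% in WT, above resting astroglia. Dividing OPC had 10.4% in Mut and 10.6% in WT, below resting OPC. Dividing inhibitory neuron precursors had 12.5% in Mut and 13.1% in WT, below non-dividing inhibitory neurons.

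Most of the genes moved together from type to type. Of the 77 genes that had at least 50 CPM in some type of each library, 73 lay above their own median over the types in microglia of both libraries and 70 did so in endothelial cells, while 75 lay below it in dividing OPC and 73 in astroglia. A gene was counted as higher or lower in a type when it was past 1.5-fold from that median in Mut and in WT alike. In microglia 20 genes were higher and none lower, where 16% of all 6459 genes tested were higher and 28.2% lower. In endothelial cells 9 genes were higher and none lower, where 17.4% of all genes were higher and 21.8% lower. These shares of genes past 1.5-fold were not far above the background for microglia and below it for endothelial cells. The median shift was the clearer difference: in microglia the 77 genes lay 0.46 (Mut) and 0.49 (WT) log2 units above their median type, and all genes tested lay at -0.17 and -0.22. In astroglia 4 genes were lower, Rps6, Rpl4 and Rpl35a among them, where 9.96% of all genes were. Dividing OPC had 3 lower, Rps24 and Rpl10 among them, where 3.25% of all genes were lower. Resting OPC had 1 higher, Rpl13, and none lower, where 18.9% of all genes were higher and 6.16% lower, and dividing astroglia had none lower, where 3.67% were. Mural cells had 1 higher gene, Rps16, where 16.2% of all genes were higher, and inhibitory neurons 1, Rps26, where 15.8% were. These counts rest on CPM: scaled with TMM factors, 67 genes were higher and 23 lower in at least 1 type, against 28 and 6 by CPM.

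Single genes departed from this shared profile, and 2 did so by more than the rest. To see this, each gene was taken as a percentage of the UMIs of all 80 genes in that type, which removes the common level. Of 693 pairs of a gene and a type, 9 lay past 1.5-fold from the gene's median type in both libraries and 3 past 2-fold.

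Rpl13 (ENSMUSG00000000740, chr8:123102350-123105244, plus strand), a protein of the large subunit, was the largest of these, in oligodendrocyte precursors. It made up 6.97% of ribosomal protein UMIs of OPC in Mut and 7.99% in WT, a log2 difference from its median type of 1.28 in Mut and 1.32 in WT. In dividing OPC it made up 6.36% in Mut and 7.12% in WT. Its level in OPC was 8441 CPM in Mut and 9593 CPM in WT, and in dividing OPC 6645 CPM and 7529 CPM. In each of the other 7 types it had between 3047 and 4320 CPM in Mut and between 3587 and 4971 CPM in WT. The OPC values of female cells (8482 CPM in Mut and 9192 CPM in WT) and of male cells (8258 CPM and 9642 CPM) were alike. Both OPC levels lay above those of all 7 other types in each library. Oligodendrocytes, of which there were 46 Mut and 44 WT barcodes, had 3025 CPM in Mut and 3599 CPM in WT, at or near the low end of those 7 types. The genome holds 3 copies of Rpl13 of at least 98% identity, none of them in the deposited gene table.

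Rpl38 (ENSMUSG00000057322, chr11:114668524-114672331, plus strand), the other gene, stood out in endothelial cells. This small protein of the large subunit is known from the mouse Tail-short mutant, which has defects of the axial skeleton. It had 3354 CPM in endothelial cells in Mut and 2404 CPM in WT. In the other 8 types it had between 732 and 1378 CPM in Mut and between 548.2 and 1072 CPM in WT. Endothelial cells were therefore the top type in each library, with inhibitory neurons next among the 9 types at 1378 CPM in Mut and 1072 CPM in WT. Leukocytes, with few barcodes, had 1643 CPM in Mut and 1158 CPM in WT. Its part of the ribosomal protein UMIs of endothelial cells was 1.93% in Mut and 1.47% in WT, 1.21 and 1.28 log2 units above its median type. Female endothelial cells had 3371 CPM in Mut and 2387 CPM in WT, and male ones 3351 CPM and 2346 CPM.

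**Figure D2:**
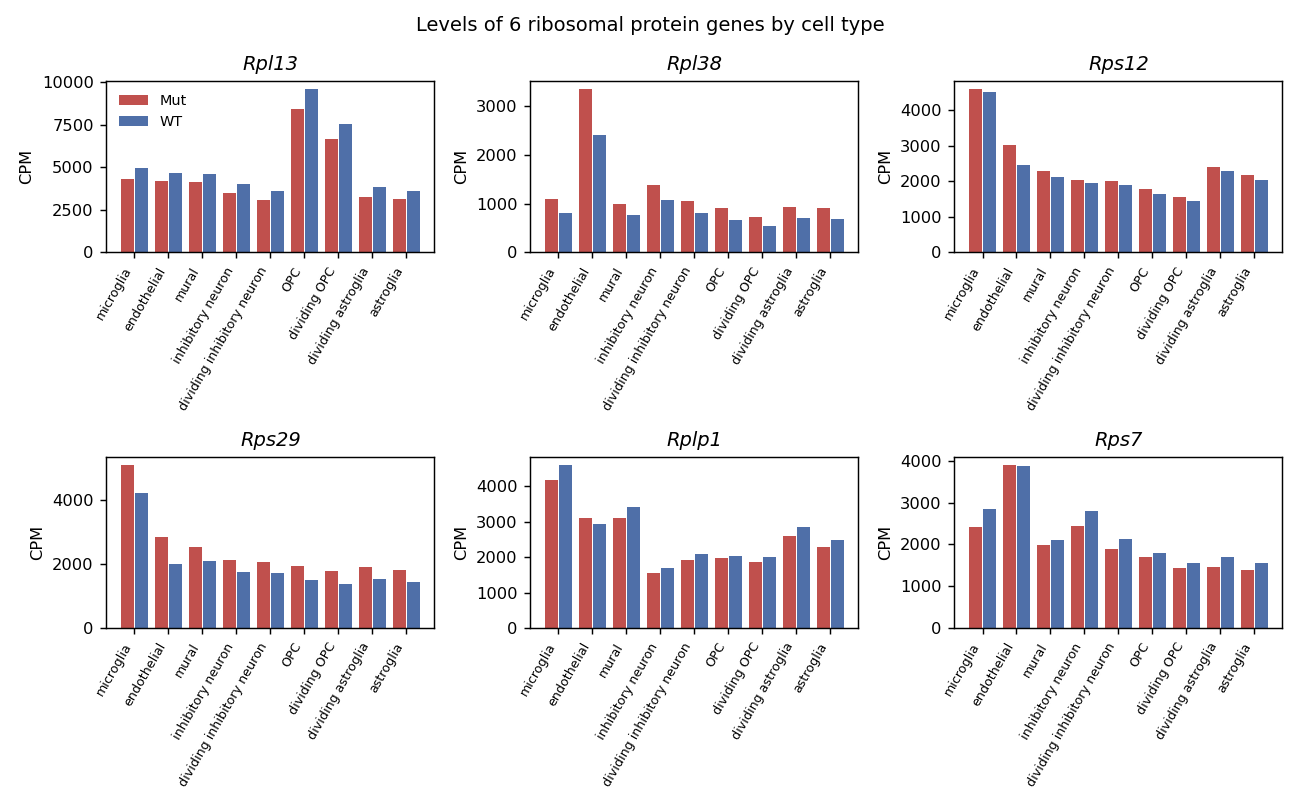
CPM (vertical axes, linear, each with its own scale) of Rpl13, Rpl38, Rps12, Rps29, Rplp1 and Rps7 in the 9 cell types, with Mut bars left of WT bars. Rpl13 peaks in OPC and dividing OPC, Rpl38 and Rps7 in endothelial cells, Rps12, Rps29 and Rplp1 in microglia among these types, and the order of types is much the same in both libraries.

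In microglia 3 genes lay past 1.5-fold after removal of the common level. Rps29, a zinc-binding protein of the small subunit, had 5093 CPM in Mut microglia and 4216 CPM in WT microglia, against at most 2827 CPM in Mut and 2094 CPM in WT in the 8 other types. Border-associated macrophages, with too few WT barcodes to be among the 9 types, had still more Rps29, 7223 CPM in Mut and 5474 CPM in WT, and leukocytes had 4171 CPM and 2777 CPM. Rps12, also of the small subunit, had 4591 CPM in Mut and 4523 CPM in WT, with endothelial cells next among the 9 types at 3012 CPM and 2451 CPM. It had 4053 CPM in Mut and 3776 CPM in WT border-associated macrophages, and 3092 CPM and 2867 CPM in fibroblasts. Rpl12, a protein at the base of the ribosomal stalk, had 2884 CPM in Mut and 3352 CPM in WT, and between 997.4 and 1889 CPM in Mut and 1086 and 1884 CPM in WT in the other 8 types. Border-associated macrophages had 2073 CPM of Rpl12 in Mut and 2303 CPM in WT. High levels of Rps29 and Rps12 were thus shared by microglia and border-associated macrophages. As a part of ribosomal protein UMIs, Rps29, Rps12 and Rpl12 in microglia remained 0.75, 0.67 and 0.71 log2 units above their median type in Mut, and 0.81, 0.73 and 0.74 in WT.

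Among the proteins of the stalk, which recruits translation factors, Rplp1 was low in neurons. It had 1560 CPM in Mut inhibitory neurons and 1688 CPM in WT, its lowest of the 9 types in both libraries, and 4188 CPM in Mut microglia and 4611 CPM in WT microglia. As a part of ribosomal protein UMIs it lay at -0.70 in Mut and -0.72 in WT in inhibitory neurons. Rps7 was high in endothelial cells, 3903 CPM in Mut and 3888 CPM in WT, against at most 2432 CPM and 2857 CPM in the other 8 types and 2882 CPM and 3045 CPM in leukocytes. Rps26 was higher in inhibitory neurons, where it made up 1.55% of ribosomal protein UMIs in Mut and 1.22% in WT. Their dividing precursors had as much, 1.54% in Mut and 1.24% in WT. Endothelial cells had less of it, 0.70% in Mut and 0.533% in WT. Rps7 and Rps26 are both genes of human Diamond-Blackfan anaemia, a disease of red cell production.

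Rps6, whose phosphorylation is the common readout of mTOR activity, had 1752 CPM in Mut microglia and 1967 CPM in WT microglia, and 666 CPM in Mut astroglia and 768.2 CPM in WT astroglia. Rpl35a had 2070 CPM in Mut and 2057 CPM in WT microglia, with 755.1 CPM and 753.2 CPM in astroglia. Rpl10, an X-linked gene whose protein joins the large subunit late, had 2113 CPM in Mut and 2338 CPM in WT microglia and was lowest in dividing OPC (844.8 CPM and 909.7 CPM). All 3 had microglia as their top type among the 9 in both libraries. Rpl10 was higher still in border-associated macrophages (2486 CPM in Mut and 2654 CPM in WT), and Rpl35a in Mut had 2124 CPM in leukocytes and 2085 CPM in border-associated macrophages.

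Divided by transcript length, Rps29 came first in Mut (5577 CPM per kilobase) and Rpl13 in WT (5907 CPM per kilobase). Rps24 came next in both, with 5283 CPM per kilobase in Mut and 5298 in WT. Since a UMI stands for 1 captured molecule, this division favours short transcripts and does not measure abundance. By UMIs, Rpl13, Rplp1 and Rps24 were among the 5 most abundant in both libraries, with Rpl23 in Mut alone and Rpsa in WT alone. At the low end, beside Rpl29 in Mut and Rpl35 in WT, were the functional copies with tissue-limited expression. Rpl10l, active in the testis, had no UMI in either library, which allows up to 0.0387 CPM in Mut and 0.0407 CPM in WT at 3 counts. Rpl3l had 70 UMIs in Mut and 21 in WT over all barcodes with a type. Of these, 30 in Mut and 12 in WT were in endothelial cells (5.44 and 2.53 CPM) and 11 and 2 in mural cells (8.63 and 1.70 CPM). Border-associated macrophages held 20 in Mut (11.03 CPM) and none in WT, and leukocytes 4 in Mut and 4 in WT (17.96 and 26.8 CPM). Rpl39l had 56 UMIs in Mut and 42 in WT, and microglia held 23 and 21 of them (9.50 and 7.41 CPM). Border-associated macrophages held 28 in Mut (15.4 CPM) and 1 in WT (1.48 CPM). Mural cells and inhibitory neurons had no Rpl39l UMI in either library. Rps27l, a copy of Rps27 known as a p53 target, was expressed in all 9 types. It had between 252.3 and 386.2 CPM in Mut and between 237.5 and 350.3 CPM in WT over them. Ependymal cells, with few barcodes, had more of it, 890.1 CPM in Mut and 1030 CPM in WT. Excitatory neurons, also few, had 164.8 CPM in Mut and 86.9 CPM in WT. The remaining functional copy on the list, Rps4l, was not in the gene table.

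Between the libraries the summed share hardly moved. Its log2 ratio of Mut to WT had a median of -0.04 over the 9 types and ranged from -0.06 in dividing inhibitory neuron precursors to 0.08 in endothelial cells. It was lower in Mut in 6 types and higher in 3. Over female cells alone the median was -0.02 and over male cells -0.04. Female over male cells of 1 library ranged from -0.03 to 0.06 in Mut and from -0.11 to 0.02 in WT. In endothelial cells, microglia, inhibitory neurons and their dividing precursors the libraries differed by more than the sexes did within either library. Compared within 1 sex, this did not hold for male microglia (log2 ratio -0.013) or female inhibitory neurons (-0.016).

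Single genes differed more. A gene was counted as higher or lower in Mut when the median of its log2 ratios over the types, with 5 CPM added to each level, was past 0.32 and all types with at least 50 CPM pointed the same way. Of the 77 genes with such a level, 6 (Rpl39, Rpl38, Rps27, Rps28, Rps21 and Rpl37) were higher and 3 (Rpl29, Rps2 and Rps18) lower. The same rule took 4.45% of all 6986 genes as higher and 1.79% as lower. Among the 1617 genes with 50 CPM in all 9 types, which is the fairer comparison for abundant mRNAs, it took 1.79% and 0.804%. The median over the 77 genes was -0.03, against 0.06 over all genes tested. The 3 genes under the level were Rpl3l, Rpl10l and Rpl39l.

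The 6 higher genes all code for very small proteins. Rpl39, X-linked and lining the exit tunnel of the large subunit, had the highest median log2 ratio, 0.44, with a range over types from 0.34 to 0.56. In astroglia it had 1069 CPM in Mut and 788.8 CPM in WT, and in microglia 2079 CPM and 1530 CPM. Rpl38 had 0.41 (0.36 to 0.48), from 904.3 CPM in Mut and 673.2 CPM in WT in astroglia. Every type of Mut lay above the same type of WT for both genes.

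Rps27 had a median log2 ratio of 0.39 (0.34 to 0.56), and Rps28 had 0.37 (0.29 to 0.56). In astroglia Rps27 had 821.9 CPM in Mut and 637.3 CPM in WT, and Rps28 had 730.4 CPM and 563.8 CPM. Rps21 reached 0.34 (0.28 to 0.47) and Rpl37 also 0.34 (0.30 to 0.49). For all 6 the values of female and male cells lay close to each other, between 0.36 and 0.48 in female cells and between 0.32 and 0.44 in male cells. Just under the threshold were Rpl37a (0.31), Rps29 (0.30), Rpl36 (0.30), Rpl21 (0.29) and Rps26 (0.29), all higher in 9 of 9 types. In female cells alone 10 genes passed, among them Rpl21, Rpl36, Rpl37a and Rps26. In male cells 5 passed, without Rps21 (0.317), and with TMM factors 4 did, without Rps21 (0.30) and Rpl37 (0.29).

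**Figure D3:**
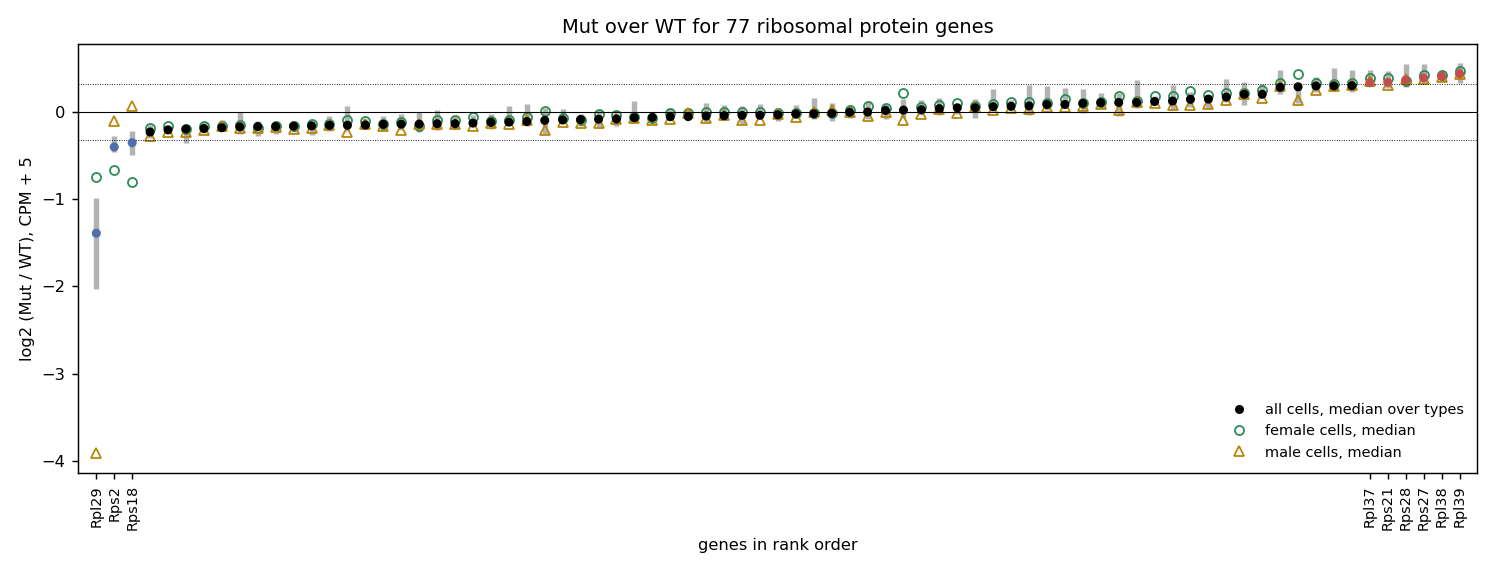
Log2 ratio of Mut to WT (vertical axis, CPM with 5 added) for the 77 genes in rank order, with grey bars for the range over types, filled points for the median (red for higher, blue for lower), open circles for female and triangles for male cells, dotted lines at 0.32 and its negative, and names on the axis for the genes counted as higher or lower. Most medians lie between -0.23 and 0.31, the 6 red points form the upper end, and female and male cells part widely for Rpl29, Rps2 and Rps18.

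The ratio followed the length of the coding sequence. Across the 77 genes, Spearman's rho between coding length and median log2 ratio was -0.75, as a description across genes of 1 pair of libraries, which are not independent replicates. All 10 genes with a coding sequence of at most 300 bases lay above 0, with a median of 0.34. Of the 16 genes of 300 to 400 bases 13 did so, with a median of 0.11, and of the 22 genes of 400 to 500 bases 8 did (median -0.03). None of the 8 genes of 500 to 600 bases did (median -0.14), and 1 of the 13 genes of 600 to 800 bases did (median -0.14). The shortest of all, Rpl41, has a coding sequence of 75 bases and had 0.15. Rps2, Rpl8 (-0.23), Rpl13 (-0.20) and Rpl3 (-0.19) were among the longer ones. The order did not go on to the longest class: of the 8 genes above 800 bases 3 lay above 0 (median -0.10), among them Rpl6 (888 bases, 0.05) and Rpl4, the longest with 1257 bases (0.02).

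The same ordering stood in every type, with rho between -0.68 and -0.79. It was -0.73 in female and -0.75 in male cells, and -0.76 without Rpl29, Rps2 and Rps18. Free RNA in the droplets, which belongs to no cell type, gave -0.68. Female over male cells within a library, a contrast that differs in neither genotype nor library, gave -0.08 in Mut and -0.27 in WT.

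Other genes shared a part of this order. For 342 other genes with at least 50 CPM in all 9 types and a transcript of at most 1000 bases, rho between transcript length and log2 ratio was -0.45, against -0.54 for the ribosomal protein genes over all their transcript lengths. Other genes with transcripts of at most 400 bases had a median of 0.20 (9 of 11 above 0), against 0.36 for the 6 ribosomal protein genes of that length (6 of 6). By coding length the 876 other genes of at most 1000 bases showed almost no order (rho -0.07), with a median of 0.07 at 300 bases or less (80 of 125 above 0). The labels give no difference in library preparation between Mut and WT. Whether capture of short mRNA in 1 of the libraries has a part in these ratios was not tested, and it cannot be told apart from genotype with 1 library each.

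**Figure D4:**
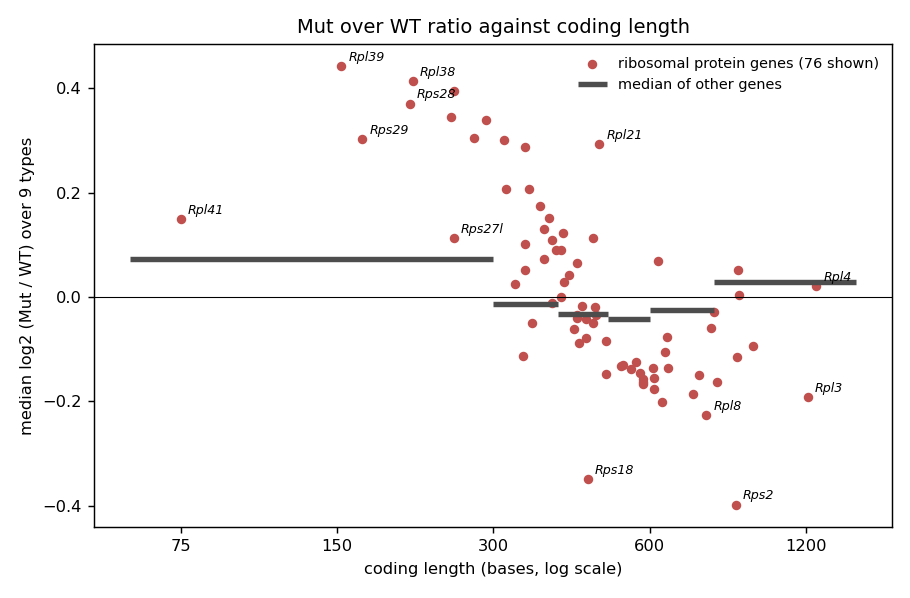
Median log2 ratio of Mut to WT over 9 cell types (vertical axis) against coding length in bases (horizontal axis, log scale) for 76 ribosomal protein genes, with grey bars at the median of other genes in each length class. Rpl29, at -1.39, lies below the plotted range; ribosomal protein genes of at most 300 bases lie at 0.11 to 0.44 and those of 500 to 600 bases all lie below 0.

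Rpl29 (ENSMUSG00000048758, chr9:106429454-106431568, plus strand, 4 exons), a large-subunit protein also known as a heparin-binding protein, had the lowest ratio of the 77 genes. Its median log2 ratio was -1.39, with a range over types from -2.03 to -0.99. In female cells the median was -0.74 and in male cells -3.91. Over the 9 types Rpl29 had 364.8 to 607.2 CPM in Mut female cells and 31.0 to 47.3 CPM in Mut male cells. In WT it had 585.4 to 902.3 CPM in female cells and 581.1 to 840.3 CPM in male cells. The Mut male range lay below all the others, and below the 311.4 CPM of free RNA in the Mut library (621.5 CPM in WT).

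Counts per barcode showed more than the means. Each astroglial barcode with at least 5000 UMIs was thinned to 5000. Of 897 Mut male astroglia, 84.7% had no Rpl29 UMI, 15.3% had 1 or 2 and none had 3 or more, and of 1758 Mut female astroglia 36.2% had none, 33.1% had 1 or 2, 24.0% had 3 to 5 and 6.66% had 6 or more. Of 1253 WT male astroglia, 46.8% had none, 11.01% had 1 or 2, 17.1% had 3 to 5 and 25.1% had 6 or more. Of 1138 WT female astroglia, 7.56% had none, 39.2% had 1 or 2, 42.4% had 3 to 5 and 10.8% had 6 or more. WT male and WT female astroglia therefore had nearly the same mean (2.93 and 2.99 UMIs) with unlike distributions, the male one in 2 parts and the female one in 1.

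No such split was seen in genes of a like level. Rpl22, whose WT level is 680.1 CPM, was at 0 in 7.22% of Mut female and 7.80% of Mut male astroglia, and in 9.31% of WT female and 8.54% of WT male astroglia. Rps28 was at 0 in 4.79% to 10.5% and Rpl36a in 7.02% to 9.74% of these same 4 groups. The split of Rpl29 was not tied to 1 cell type either. In WT males the share of barcodes at 0 lay between 32.4% and 51.1% in all 9 types, and in Mut males between 76.0% and 88.3%. In WT females it was at most 7.56%, and in Mut females between 21.7% and 48.9%. Barcodes with and without an Rpl29 UMI were thus both frequent in WT males and in Mut females. In Mut female astroglia the percentage was highest at 0 UMIs (36.2%) and fell with each UMI up to 4 (8.59%), with no separate upper part. The animals behind the cells are not marked, so whether barcodes with and without Rpl29 come from different animals was not tested.

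**Figure D5:**
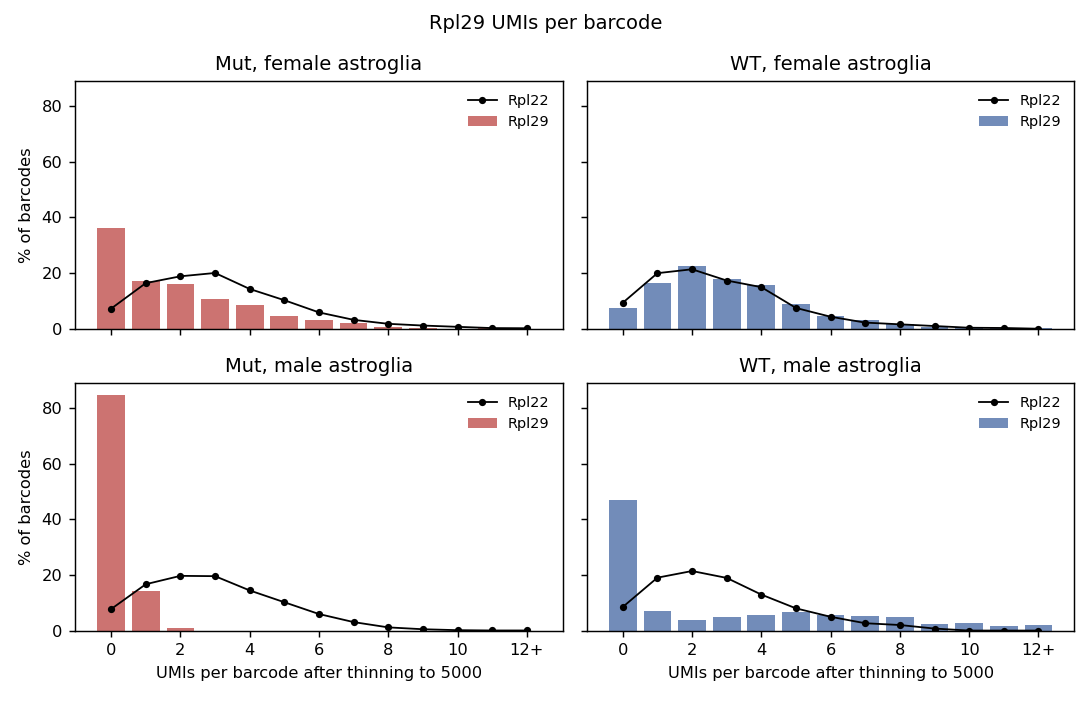
Percent of astroglial barcodes (vertical axis) with a given number of Rpl29 UMIs (bars) and Rpl22 UMIs (black line) after thinning to 5000 UMIs (horizontal axis, with 12 or more pooled), with Mut left of WT and female above male. Rpl22 has 1 peak in all 4 panels, while Rpl29 is at 0 in 84.7% of Mut male astroglia and has a peak at 0 and a broad upper part in WT male astroglia.

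Rps2 (ENSMUSG00000044533, chr17:24718116-24721929, plus strand) and Rps18 (ENSMUSG00000008668, chr17:33951999-33956001, minus strand), both of the small subunit, were lower in Mut over all cells, with unlike values in the sexes. Rps2 had a median log2 ratio of -0.40 over all cells, -0.66 in female cells and -0.10 in male cells. In astroglia it had 1319 CPM in Mut female and 1500 CPM in Mut male cells, against 2160 CPM in WT female and 1692 CPM in WT male cells. WT female cells were the high group. Rps18 had -0.35 over all cells, -0.80 in female cells and 0.07 in male cells. In astroglia it had 1004 CPM in Mut female and 1249 CPM in Mut male cells, against 1788 CPM in WT female and 1242 CPM in WT male cells. Again WT female cells stood apart from the other 3 groups, and in male cells Rpl29 was the 1 gene counted as lower.

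Many of these genes have near-identical copies with which their reads can be shared, Rps18 among them. At 98% identity over 80% of the coding sequence, 65 of the 80 genes had at least 1 copy in the GRCm38 annotation, and 10 had a copy that is itself in the gene table. Gm10260, a copy of Rps18, had a median log2 ratio of 3.48 in female and -0.34 in male cells. Adding the copies in the table to Rps18 left the order unchanged: over the types the median was 1360 CPM in Mut female and 1533 CPM in Mut male cells, against 2093 CPM in WT female and 1481 CPM in WT male cells. Levels of Rps2 (9 copies), Rpl29 (8 copies) and Rpl21 (16 copies) carry the same uncertainty, since the counting of reads that match several places was not given. Of the 6 higher genes Rps21 has no such copy, and Rps27 is the 1 with a copy in the table.

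Small sets of related function moved little between the libraries. The stalk proteins Rplp0, Rplp1 and Rplp2 had median log2 ratios of -0.09, -0.11 and 0.10. Rpl5 and Rpl11, which with 5S ribosomal RNA hold back Mdm2 when ribosome assembly fails, had 0.00 and -0.13. None of the 10 Diamond-Blackfan anaemia genes on the list passed the rule (median -0.02). The rule took 4.45% of all genes as higher and 1.79% as lower, so a list this short would hold few or none. Rps27 and Rps28, also reported in that disease but not on the list, did pass. Of 5 genes with known morphological mouse mutants only Rpl38 did. Of the 4 X-linked genes Rpl39 passed, while Rpl36a (0.21), Rps4x (-0.06) and Rpl10 (-0.11) did not. The small-subunit genes had a median of -0.04 (3 higher and 2 lower of 31) and the large-subunit genes of -0.01 (3 higher and 1 lower of 46).

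Genes outside the family with related roles mostly moved little too. With 4.45% of all genes taken as higher and 1.79% as lower, short lists of such genes would hold few or no calls. None of 7 ribosomal proteins that the symbols leave out, such as Rps3a1 (-0.10), Fau (0.03) and Rack1 (-0.15), passed in either direction. None of 17 other mRNAs known for a TOP tract did, among them the elongation factors Eef1a1 (0.06) and Eef2 (0.15) and the growth-related Tpt1 (-0.25), and their median was -0.05. Of 18 measured genes of RNA polymerase I and ribosome assembly only Pes1 passed (0.43), and it had enough counts in 1 type alone. None of 67 measured mitochondrial ribosomal proteins passed (median -0.05). That last list went the other way in microglia, with 27 of 64 genes lower than in the median type (28.2% of all genes were) and none higher. The most similar profiles outside the family over the 18 combinations of type and library, among 1347 genes with enough counts, were those of Rps3a1 (Pearson's r 0.97), Tmsb4x (0.97), Fau (0.95), Ube2d3 (0.93) and Sh3bgrl3 (0.92). These points share libraries and depth, so the values are a description.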

How the data were processed

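For each library the authors deposited 1 matrix of UMI counts by gene and droplet barcode, not normalized, written by Cell Ranger 4 per the file headers. Cell Ranger, STAR and the GRCm38 build are named in the submitters' processing notes. How reads with several matches were counted was not given in these sources.

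Barcodes under 1000 UMIs, under 500 genes or above 20% mitochondrial UMIs were left out, and the others held 88375648 UMIs in Mut and 84574847 in WT. A barcode was given a type when at least 3 of that type's markers had a UMI and at least 2 more than those of any other type; astroglia, oligodendrocyte precursors and inhibitory neurons with at least 3 of 8 division markers were called dividing. The rule's numbers were set after seeing how often markers were detected. This left 931 Mut and 1072 WT barcodes without a type. No doublet caller was used for the main results. The marker rule left unassigned only barcodes without a lead of 2 markers, so doublets can remain among the types. Of the barcodes with the highest Scrublet scores, 419 of 816 in Mut and 588 of 972 in WT had a type. Leaving out the highest Scrublet scores was an alternative. Female barcodes had Xist and no Y-linked UMI (Ddx3y, Uty, Kdm5d, Eif2s3y), and male barcodes the reverse. Both signals were seen in 403 Mut and 301 WT barcodes, which were in neither sex group.

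UMIs were summed by library and type and expressed as CPM, and ratios were taken on log2 of CPM plus 5. With 1 library per genotype there are no p-values; calls go by size, beside the share of all genes called alike. Shares have exact Clopper-Pearson intervals at 95%, for counting error only. Lengths come from GENCODE vM21 (GRCm38), copies from blastn 2.17.0, start sites from RefSeq (GRCm38.p6). By rule, the text names the genes called between Mut and WT, the 10 with the widest range over types among those with 50 CPM in every type, the 5 most and 5 least abundant in each library, the small role groups and the 5 other genes of most similar profile. Further genes, such as those called in single types, at the edge of a threshold or departing from the shared profile, were named after their values were seen. Some members are counted in the totals but not reported here by name. Alternatives covered filters, thinning, free RNA, marker rule, scaling (TMM from edgeR 4.0.16), sex, minimum level and added CPM. Python 3.11.15, numpy 2.4.6, pandas 2.3.3, scipy 1.17.1 and scanpy 1.11.5 were used. The scripts were tested on simulated counts. The members and lists were chosen with earlier results of these data known.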

Additional observations from a re-analysis of the deposited data

Results flagged for a closer look

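Gm10260, a gene nearly identical in sequence to Rps18, went opposite ways in the sexes. Its median log2 ratio of Mut to WT over cell types was 3.48 in female cells and -0.34 in male cells, and every type counted was higher in Mut among female cells and lower among male cells. Over the 9 types it had 61.9 to 119 CPM in Mut female and 39.96 to 79.4 CPM in Mut male cells, against 0.684 to 8.49 CPM in WT female and 60.2 to 98.5 CPM in WT male cells. The difference between the sexes was not tested, because each library holds an unknown number of animals of each sex.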

How the results depend on the processing

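Each choice of processing was changed in turn. No paired analysis was possible because there is 1 library for each genotype and the cells of single animals are not marked. Microglia stayed the highest of the 9 types in each alternative for the share, and astroglia the lowest, except in WT without the highest Scrublet scores and in WT female cells, where dividing oligodendrocyte precursors were lowest. The fold between highest and lowest was 1.76 in Mut and 1.76 in WT. It became 1.75 in Mut and 1.75 in WT with at least 2000 UMIs, 1.77 and 1.80 without the highest Scrublet scores, 1.86 and 1.87 after thinning to 1000 UMIs, 1.81 and 1.81 after subtraction of 5% free RNA, and 1.86 and 1.86 as a mean over barcodes. It was 1.93 in Mut and 1.95 in WT per UMIs of all other nuclear genes, 1.74 in Mut and 1.80 in WT in female cells, and 1.70 in WT male cells. The median log2 ratio of the share, -0.04, was -0.081 with TMM factors, -0.055 per UMIs of all other nuclear genes, -0.030 after thinning, -0.029 as a mean over barcodes, -0.016 in female and -0.044 in male cells.

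The counts of 6 higher and 3 lower genes in Mut became 10 higher in female cells, 5 higher and 1 lower in male cells, and 4 higher with TMM factors, where Rpl37 (0.294) and Rps21 (0.304) lost their calls. In male cells Rps21 did (0.317). Rps18 reversed in male cells, to 0.075. The count of 28 genes higher in at least 1 type became 67 with TMM factors and 44 per UMIs of other nuclear genes, and that of 6 lower became 23 with TMM factors. Of the ratios of called genes under the alternatives, 101 stayed within counting error of the reported value, 6 moved further and 1 reversed. Of the ranges over types of named genes, 94 stayed within 0.1 and 26 moved further. Depth limits the small types most: fewer than 100 barcodes of a type in either library gave levels only.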
